A study of Mus musculus with 6 samples.

Results

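The keratin gene family was measured in whole colons of R1ko mice and WT mice. Its members were all genes of the table whose symbol is Krt, a number and at most 1 lower-case letter: 54 of 30330 genes with values. Members were matched by symbol. Keratin-associated genes (Krtap) are another family and were not counted. R1ko mice carry the genotype Tnfrsf1a-/-, which knocks out the TNFR1 gene (a receptor for tumour necrosis factor), and WT mice the genotype WT. All were males aged 12 weeks, 3 for each genotype, and the labels give the strain C57Bl/6J and the tissue colon for both groups, with no treatment. The sources used here give neither the part of Tnfrsf1a that was removed nor whether the mice were littermates. Values are TPM, a transcript abundance corrected for length and relative to all transcripts of its library, so levels of different genes can be compared, and the read depth behind each value is unknown.

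Keratins are the intermediate filament proteins of epithelial cells. A filament needs 1 type I and 1 type II keratin, so the genes are used in pairs, and the pair in use marks the kind of epithelium. Simple epithelia such as the lining of the colon use Krt8 with Krt18, Krt19 and Krt20. Stratified epithelia such as skin, mouth and anal canal use Krt5 with Krt14 in the basal layer, and Krt1 with Krt10 or Krt4 with Krt13 above it. Hair follicles use further keratins for the inner root sheath and for the hard shaft. By these known identities the 54 genes were split into 7 simple, 20 epidermal and 25 hair keratins, while Krt222 and Krt90 were left unplaced. On mm10 the family lies in a pair of clusters, 27 genes on chromosome 11 and 27 on chromosome 15. All type II genes are on chromosome 15, where Krt18 is the only type I gene.

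In R1ko colons no keratin of the lining differed past the threshold, and 2 keratins of the hair follicle were lower. Krt71 and Krt25, a pair of the inner root sheath, fell 2.01 and 1.80 on the log2(TPM + 0.5) scale, and no keratin rose. The high WT levels were those of replicates 1 and 3, and WT replicate 2 had hair keratin levels within or near the R1ko range. Both calls were made on TPM as deposited and were lost after median-of-ratios scaling, where the fold changes were as large, at −2.03 and −1.82.

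WT replicate 2 stood apart from the other libraries. Transcripts without a gene name held 27.4% of its TPM, against 1.86 to 7.23% in the R1ko libraries and 4.05 and 2.79% in WT replicates 1 and 3, which lowers every other TPM value there. It was the lowest library for 67.9% of the 14248 genes tested. Its median-of-ratios factor, a library scale over those genes, was 0.786, against 0.918 to 1.07 in R1ko and 1.13 and 1.10 in the other WT libraries. The main results are therefore given with and without it. Markers of the colon lining were high throughout, with sums over 12 genes of 11803, 10947 and 11313 TPM in R1ko and 10538, 8175 and 11195 TPM in WT replicates 1, 2 and 3, and none was at 0. Of the targeted gene, the Tnfrsf1a transcript ENSMUST00000032491 had 23.5, 20.4 and 25.6 TPM in R1ko, against 67.6, 39.9 and 59.1 TPM in WT. The genotypes did not overlap for it (two-sided exact permutation p = 0.1, the smallest that 3 against 3 allows; limma adjusted p = 0.197). Another Tnfrsf1a transcript, ENSMUST00000125880, was higher, with 18.0, 12.4 and 14.1 TPM in R1ko, against 1.20, 1.20 and 0.890 TPM in WT (log2 fold change 3.25, limma adjusted p = 0.00124). The Tnfrsf1a sum over transcripts overlapped, at 49.2, 36.5 and 46.9 TPM in R1ko, against 71.2, 44.1 and 63.0 TPM in WT, so it does not separate the genotypes.

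Simple keratins made up most keratin RNA in every library. Their summed level was 6869, 6383 and 6593 TPM in R1ko replicates 1, 2 and 3, against 6447, 4931 and 7163 TPM in WT. That was 85.2, 88.5 and 85.0% of all keratin TPM in R1ko and 81.5, 93.8 and 87.4% in WT. Epidermal keratins summed to 1156, 808.6 and 1127 TPM in R1ko, against 1244, 296.5 and 880.7 TPM in WT. Hair keratins summed to 34.4, 22.6 and 38.5 TPM in R1ko, against 223.6, 30.4 and 150.3 TPM in WT. Each of the 3 sums overlapped between the genotypes, and in the hair class WT replicates 1 and 3 were above all R1ko libraries while WT replicate 2 was not. In this bulk RNA, fewer cells of a type and less keratin RNA per cell cannot be told apart.

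**Figure D1:**
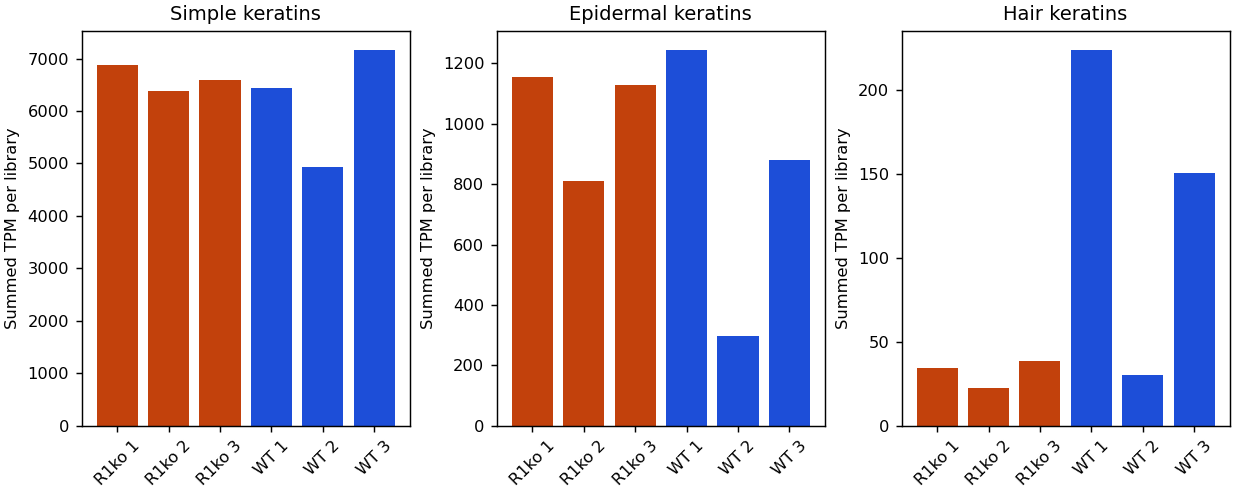
Summed TPM of simple, epidermal and hair keratins in each library (bars, linear axes from 0; R1ko in orange, WT in blue). Hair keratins reached 223.6 and 150.3 TPM in WT replicates 1 and 3 and stayed at or below 38.5 TPM in the other 4 libraries.

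Sequences upstream of 5 members are shown because the hair keratins were high in the same libraries, unlike the main pair of the lining. They are the 250 bases before the RefSeq start of each gene, 5′ to 3′ on the gene's strand, from RefSeq on GRCm38.p6, the build also called mm10. RefSeq and GENCODE starts differ, so that 140 bases of the Krt8 window, 36 of the Krt18 window and 12 of the Krt71 window lie inside the GENCODE gene. Capitals mark matches to TATAAA, the letters of a TATA box, TGANTCA, the letters bound by AP-1, and CTTTGA, the core letters bound by LEF and TCF factors. All were searched on both strands, and none of the 3 motifs overlaps another in these windows.
Krt8 (chr15:102004343-102004592, minus strand): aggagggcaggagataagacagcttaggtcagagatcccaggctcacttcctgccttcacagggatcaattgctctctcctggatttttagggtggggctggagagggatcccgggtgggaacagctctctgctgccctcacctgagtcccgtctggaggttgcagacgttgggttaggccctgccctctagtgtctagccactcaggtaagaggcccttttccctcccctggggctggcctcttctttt
Krt18 (chr15:102027966-102028215, plus strand): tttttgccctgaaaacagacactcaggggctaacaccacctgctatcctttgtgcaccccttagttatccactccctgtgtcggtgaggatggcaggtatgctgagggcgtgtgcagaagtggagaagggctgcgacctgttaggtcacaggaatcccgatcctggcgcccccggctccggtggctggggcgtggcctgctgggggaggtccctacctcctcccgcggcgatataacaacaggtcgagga
Krt25 (chr11:99322952-99323201, minus strand): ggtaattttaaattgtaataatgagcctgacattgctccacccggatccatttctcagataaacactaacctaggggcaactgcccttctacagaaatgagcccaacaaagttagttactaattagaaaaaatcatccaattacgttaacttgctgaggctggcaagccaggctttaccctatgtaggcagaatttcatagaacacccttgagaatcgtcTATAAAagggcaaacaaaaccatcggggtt
Krt71 (chr15:101743098-101743347, minus strand): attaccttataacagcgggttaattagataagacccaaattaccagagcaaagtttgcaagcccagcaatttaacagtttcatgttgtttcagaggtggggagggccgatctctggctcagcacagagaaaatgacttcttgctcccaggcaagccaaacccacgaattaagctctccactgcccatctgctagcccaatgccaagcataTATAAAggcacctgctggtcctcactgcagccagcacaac
Krt33b (chr11:100029869-100030118, minus strand): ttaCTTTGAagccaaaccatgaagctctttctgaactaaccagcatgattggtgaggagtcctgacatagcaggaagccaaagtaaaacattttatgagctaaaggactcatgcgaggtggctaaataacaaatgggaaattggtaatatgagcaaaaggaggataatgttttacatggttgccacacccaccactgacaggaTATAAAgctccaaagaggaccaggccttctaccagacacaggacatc
Krt25, Krt71 and Krt33b hold TATAAA, beginning 30, 40 and 47 bases before the RefSeq start. The windows of Krt8 and Krt18 hold none of the 3 motifs, but only 110 bases of the Krt8 window lie outside the GENCODE gene. RefSeq windows were matched for 36 of the 54 keratins, 37 windows in all. Of these, 9 reach into the GENCODE gene, among them 4 of 5 windows of simple, 2 of 14 of epidermal and 3 of 17 of hair keratins, so the classes are not compared over like stretches. TATAAA was found in 13 of 17 windows of hair keratins, in 3 of 14 of epidermal keratins and in 1 of 5 of simple keratins, against 12.4% of 32851 windows of all genes. CTTTGA was found in 6 of 17, 2 of 14 and 0 of 5, against 13.8% of all windows. TGANTCA was found in 0 of 17, 2 of 14 and 0 of 5, against 6.75%. These matches describe letters in the window and say nothing on which factor binds.

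Of the 54 keratins, 36 averaged 1 TPM or more across all 6 libraries and entered the test of all genes. They were all 7 simple, 14 of 20 epidermal and 15 of 25 hair keratins. Among these 36, 2 were lower and 0 higher in R1ko (limma, Benjamini-Hochberg adjusted p below 0.05 over 14248 genes), against 0.175% of all genes called lower and 0.0912% called higher. By unadjusted p below 0.05, 14 of the 36 were lower and 5 higher, against 3.69% of all genes in either direction. The median log2 fold change was 0.14 for simple, 0.55 for epidermal and −1.61 for hair keratins, against 0.02 for all genes tested. Without WT replicate 2 they were −0.04 for simple, −0.08 for epidermal and −2.42 for hair keratins, and −0.13 over all genes tested. After median-of-ratios scaling 0 of the 36 were called in either direction, against 0.00702% of all genes lower and 0.0351% higher. The test was also limited to genes averaging 5 TPM or more. There 10 of 29 keratins were lower, all of them hair keratins, against 0.634% of all genes, and 1 was higher, Krt13, against 0.71%. Each of the 10 averaged 4.12 TPM or less in R1ko, so each entered this test through WT. The filter thus favoured their negative direction.

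**Figure D2:**
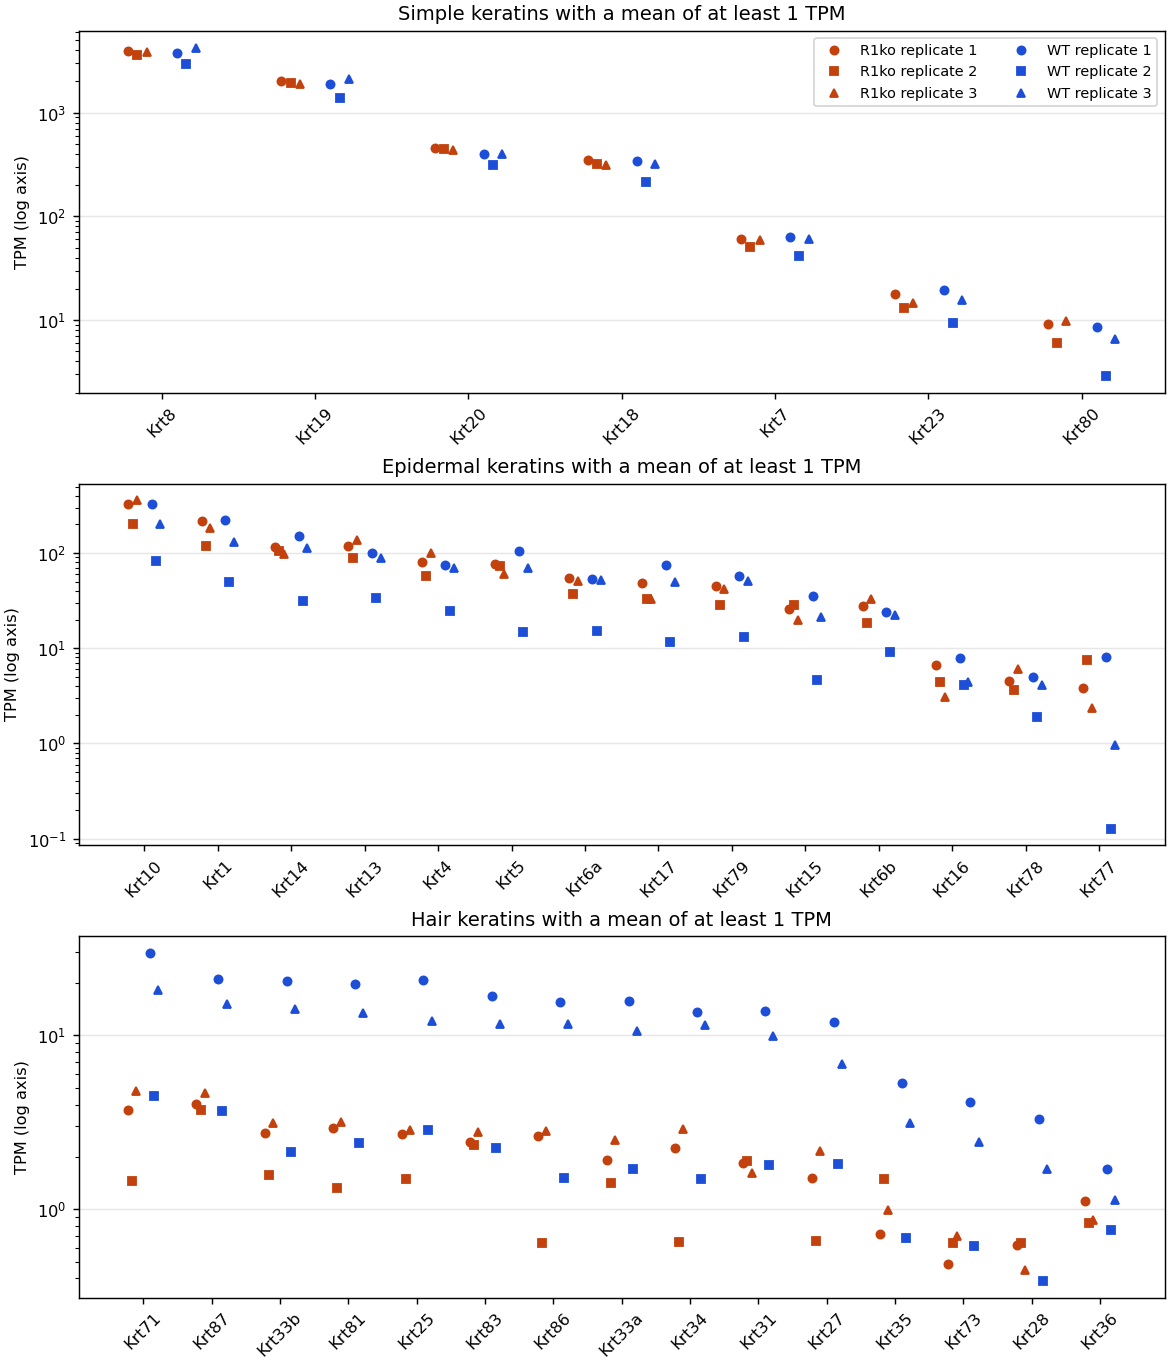
TPM of the 36 tested keratins in each library (log axes; orange R1ko, blue WT; circle, square and triangle for replicates 1, 2 and 3). Simple keratins run close together in both groups, WT replicate 2 is the lowest library for most epidermal keratins, and for hair keratins it lies among or near the R1ko libraries, below WT replicates 1 and 3.

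Among the simple keratins, no gene passed the test, and all 7 had a positive log2 fold change between 0.07 and 0.53. Without WT replicate 2, 5 of the 7 were negative. Krt8 (ENSMUSG00000049382; chromosome 15, 101996698 to 102004482), the type II keratin of simple epithelia, had 3941, 3628 and 3848 TPM in R1ko, against 3725, 2977 and 4234 TPM in WT. It ranked between place 17 and 19 of all genes by TPM in the R1ko libraries, and between 15 and 19 in WT. Krt19, the smallest keratin and a type I partner of Krt8, had 2029, 1924 and 1907 TPM in R1ko, against 1888, 1374 and 2126 TPM in WT. Krt18 (chromosome 15, 102028180 to 102032027), the other main partner of Krt8, had 351, 318 and 316 TPM in R1ko, against 341, 217 and 321 TPM in WT. For Krt8 and Krt19 the R1ko libraries lay inside the WT range, for Krt18 R1ko replicate 1 was above it, and WT replicate 2 was the lowest library for all of them. Krt8 averaged 3806 ± 160.9 TPM in R1ko and 3646 ± 632.0 TPM in WT (SD, n = 3 each), giving 0.08 ± 0.19 as log2 fold change (SE; limma adjusted p = 1.0).

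Krt20 (ENSMUSG00000035775; chromosome 11, 99428403 to 99438150) is the keratin of mature surface cells of the gut. It had 461, 443 and 439 TPM in R1ko, against 400.1, 309.7 and 398 TPM in WT. It was the only simple keratin in which all R1ko libraries lay above all WT libraries, as for 3.17% of all genes tested. The averages were 447.7 ± 11.7 TPM in R1ko and 369.4 ± 51.7 TPM in WT, a log2 fold change of 0.29 ± 0.19 that did not pass (limma adjusted p = 1.0; exact permutation p = 0.1).

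Krt7, a type II keratin of ducts and of bladder lining, had 60.1, 50.8 and 59.7 TPM in R1ko, against 63.6, 41.1 and 60.7 TPM in WT. Krt23, a type I keratin whose class varies between sources, had 18.0, 13.0 and 14.7 TPM in R1ko, against 19.6, 9.36 and 15.5 TPM in WT. Krt80, a type II keratin whose class also varies, had 9.15, 5.995 and 9.84 TPM in R1ko, against 8.57, 2.88 and 6.57 TPM in WT. All 7 simple keratins were lowest in WT replicate 2, and the other WT libraries had values near those of R1ko. Log2 fold changes of these 3 were 0.07, 0.09 and 0.53, none past the threshold. Krt7 was spread over several transcripts. Its main transcript ENSMUST00000068904 held 58.7% of its TPM, with 35.2, 37.2 and 35.7 TPM in R1ko and 35.5, 20.7 and 33.0 TPM in WT.

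Among the 14 tested epidermal keratins, none passed the test, with 13 positive log2 fold changes and 1 negative, in Krt16. Without WT replicate 2 there were 6 positive and 8 negative, again with none past the threshold. The basal layer was represented by Krt5, Krt14 and Krt15. Krt5 (chromosome 15, 101707070 to 101712898), the type II keratin of basal cells, had 76.2, 73.7 and 59.7 TPM in R1ko, against 104, 14.9 and 69.8 TPM in WT. Krt14 (chromosome 11, 100203162 to 100207548), its type I partner, had 115, 104 and 96.9 TPM in R1ko, against 149.5, 31.5 and 113 TPM in WT. Krt15, a further type I keratin of basal cells, had 25.9, 28.8 and 19.6 TPM in R1ko, against 35.4, 4.68 and 21.1 TPM in WT. For all of these, WT replicate 1 was the highest library and WT replicate 2 the lowest, with R1ko in between. The log2 fold changes were 0.53, 0.37 and 0.65, and without WT replicate 2 they were −0.30, −0.31 and −0.16.

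The layers above the basal one were also present. Krt1, the type II keratin of cornifying epidermis, had 215, 120.0 and 183 TPM in R1ko, against 220.3, 49.3 and 130.1 TPM in WT. Krt10, its type I partner, had 329, 201 and 359 TPM in R1ko, against 326, 82.1 and 204 TPM in WT. Krt4, the type II keratin of stratified mucosa, had 80.1, 57.9 and 101 TPM in R1ko, against 75.6, 24.4 and 69.2 TPM in WT. R1ko replicates overlapped with WT replicates 1 and 3 in each of them. Krt13, the type I partner of Krt4, had 120.0, 89.7 and 137 TPM in R1ko, against 99.9, 33.9 and 88.4 TPM in WT. Its log2 fold change was 0.76 ± 0.28, with the smallest p among the epidermal keratins (limma adjusted p = 0.676; unadjusted p = 0.0101), and 0.27 without WT replicate 2. WT replicate 2 was below all R1ko libraries for Krt1, Krt10, Krt4 and Krt13.

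Krt6a and Krt6b are type II keratins of hair follicles and of wounded skin. Krt6a had 54.5, 37.5 and 50.8 TPM in R1ko, against 53.1, 15.3 and 51.7 TPM in WT. Krt6b had 27.8, 18.6 and 33.0 TPM in R1ko, against 23.9, 9.05 and 22.4 TPM in WT. These genes share 31-base stretches with other genes over 66.6 and 57.0% of their length, each with the other as closest gene, so their separate values are uncertain. Krt17, a type I keratin of skin appendages with 15.8% of such stretches in other genes, had 49.1, 33.0 and 32.5 TPM in R1ko, against 75.0, 11.6 and 49.2 TPM in WT. Krt16, a type I keratin of wounded skin with 51.9% of such stretches in other genes, had 6.74, 4.400 and 3.07 TPM in R1ko, against 7.91, 4.07 and 4.399 TPM in WT. Log2 fold changes were 0.43 and 0.59 for Krt6a and Krt6b and 0.09 and −0.19 for Krt17 and Krt16, none past the threshold.

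Krt79, Krt78 and Krt77 were the other tested epidermal keratins, all of type II. Krt79 had 45.4, 28.2 and 41.9 TPM in R1ko, against 57.0, 13.2 and 51.2 TPM in WT. Krt78 had 4.52, 3.67 and 5.997 TPM in R1ko, against 4.997, 1.88 and 4.12 TPM in WT. Krt77, a keratin of the epidermis, had 3.78, 7.47 and 2.35 TPM in R1ko, against 8.07, 0.127 and 0.965 TPM in WT. On the log2 scale Krt77 varied most within the WT group of all tested keratins, and its log2 fold change of 1.21 had an SE of 0.52 (limma adjusted p = 1.0). The other 6 epidermal keratins were at 1.69 TPM or less in each library, and their means over the 6 libraries lay between 0.0252 TPM for Krt9, of palms and soles, and 0.591 TPM for Krt2.

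The hair keratins gave the only calls. All 15 tested had a negative log2 fold change, between −2.01 and −0.21, and in all 15 WT replicates 1 and 3 were above every R1ko library, as for 28.3% of all genes tested. Over all 25 hair keratins, tested or not, this order held for 23, against 23.2% of all genes above 0 in any library. It also held for 2 of the 14 tested epidermal keratins, Krt17 and Krt79, and for 1 of the 7 simple, Krt7. Without WT replicate 2 the log2 fold changes of these were −0.69, −0.51 and −0.13, none past the threshold. Krt28, Krt36 and Krt73 averaged 0.571, 0.936 and 0.610 TPM in R1ko and reached the mean of 1 TPM through WT. The filter thus favoured their negative direction. WT replicate 1 was the highest library for 23 of the 25, against 33.4% of all genes. WT replicate 2 lay within the R1ko range for 16 of the 25, below it for 7 and above it for 2.

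The inner root sheath, which moulds the growing hair, uses Krt25, Krt26, Krt27 and Krt28 of type I with Krt71, Krt72 and Krt73 of type II. Krt74, also counted in this group, is listed as a pseudogene of the mouse in GENCODE M21. Krt71 (ENSMUSG00000051879; chromosome 15, 101733949 to 101743109) had 3.704, 1.46 and 4.78 TPM in R1ko, against 29.9, 4.46 and 18.3 TPM in WT. It averaged 3.31 ± 1.69 TPM in R1ko and 17.5 ± 12.7 TPM in WT (SD, n = 3 each), giving −2.01 ± 0.41 as log2 fold change (SE; limma adjusted p = 0.0192). The groups overlapped through WT replicate 2 (exact permutation p = 0.2). Krt25 (ENSMUSG00000035831; chromosome 11, 99315516 to 99322951) had 2.703, 1.499 and 2.84 TPM in R1ko, against 20.9, 2.86 and 12.1 TPM in WT. It averaged 2.35 ± 0.74 TPM in R1ko and 11.9 ± 9.02 TPM in WT, a log2 fold change of −1.80 ± 0.40 (limma adjusted p = 0.0377). Krt25 was the only tested keratin with all R1ko libraries below all WT libraries (exact permutation p = 0.1), as for 1.82% of all genes, and WT replicate 2, at 2.86 TPM, was barely above R1ko replicate 3, at 2.84 TPM.

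After median-of-ratios scaling the log2 fold changes were −2.03 for Krt71 and −1.82 for Krt25, and neither passed (limma adjusted p = 0.343 and 0.351). Without WT replicate 2 they were −2.76 and −2.56, and only Krt25 passed (adjusted p = 0.0872 and 0.0334). The test estimates each gene's spread partly from all other genes. The residual SD of Krt71 and Krt25 themselves was 1.09 and 1.02 on the log2 scale, and the SD used in the test was 0.50 and 0.48. The own SD was above the one used in 14 of 15 hair, 14 of 14 epidermal and 4 of 7 simple keratins, against 34.1% of all genes tested. With robust variance estimation, an alternative chosen after seeing the data that leaves the spread of unusually variable genes nearer their own, neither passed (adjusted p = 1.0 for each), while Krt73 did (adjusted p = 0.0149). Krt73, which reached the mean for the test through WT, was the 1 keratin called lower by that estimate. By it 0 were called higher, against 0.337% of all genes lower and 0.246% higher.

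Krt27, a type I keratin of the root sheath, had 1.52, 0.653 and 2.15 TPM in R1ko, against 11.9, 1.81 and 6.88 TPM in WT. Krt73, of type II, had 0.487, 0.638 and 0.703 TPM in R1ko, against 4.12, 0.618 and 2.42 TPM in WT. Krt28, of type I, had 0.623, 0.64 and 0.45 TPM in R1ko, against 3.29, 0.385 and 1.71 TPM in WT. All of them had WT replicate 2 within or below the R1ko range. The log2 fold changes were −1.70, −1.16 and −0.87 (limma adjusted p = 0.0722, 0.407 and 1.0). Krt27 shares 31-base stretches with other genes over 17.8% of its length, with Krt25 as the closest gene. Krt25 does so over 15.7%, with Krt27 as the closest gene, and Krt71 over 5.15%. Krt26, Krt72 and the pseudogene Krt74 were below the mean needed for the test, and in each of them WT replicates 1 and 3 were above all R1ko libraries. In Krt74 this rests on 0.106 TPM in WT replicate 3 against 0.105 TPM in R1ko replicate 3.

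The hard keratins of the hair shaft followed the same order of libraries. Of type I, Krt31 had 1.86, 1.900 and 1.61 TPM in R1ko, against 13.8, 1.79 and 9.95 TPM in WT. Krt33a had 1.93, 1.41 and 2.497 TPM in R1ko, against 15.7, 1.71 and 10.6 TPM in WT. Krt33b (chromosome 11, 100023634 to 100029868) had 2.74, 1.58 and 3.14 TPM in R1ko, against 20.6, 2.14 and 14.2 TPM in WT. WT replicates 1 and 3 were at least 3 times the highest R1ko library in each of these. Krt34 had 2.24, 0.644 and 2.88 TPM in R1ko, against 13.7, 1.49 and 11.4 TPM in WT. Krt35 had 0.722, 1.496 and 0.992 TPM in R1ko, against 5.32, 0.686 and 3.15 TPM in WT. Krt36, the weakest of this group, had 1.12, 0.828 and 0.862 TPM in R1ko, against 1.71, 0.76 and 1.14 TPM in WT. WT replicates 1 and 3 were nearest to the R1ko values in Krt36, whose log2 fold change was −0.21 ± 0.32.

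Of type II, Krt81 (chromosome 15, 101459061 to 101463751) had 2.93, 1.32 and 3.18 TPM in R1ko, against 19.8, 2.41 and 13.5 TPM in WT. Krt83 had 2.45, 2.34 and 2.78 TPM in R1ko, against 16.8, 2.26 and 11.6 TPM in WT. Krt86 had 2.64, 0.64 and 2.83 TPM in R1ko, against 15.5, 1.504 and 11.7 TPM in WT. WT replicate 2 lay within the R1ko range for Krt81 and Krt86 and just below it for Krt83. Krt87 had 4.03, 3.705 and 4.63 TPM in R1ko, against 21.2, 3.68 and 15.2 TPM in WT. None of the 10 tested shaft keratins passed with all libraries (limma adjusted p of 0.0973 or more), with log2 fold changes between −1.72 and −0.21. Without WT replicate 2, 6 of the 10 passed, namely Krt31, Krt33a, Krt33b, Krt81, Krt83 and Krt87, so that with Krt25 7 keratins were called lower and 0 higher, against 0.105% of all genes lower and 0.0281% higher. The same 7 were called lower, and 0 higher, when scaling was applied as well, an alternative chosen after seeing the data, against 0.105% of all genes lower and 0.0421% higher.

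Many shaft keratins are close copies of each other. The share of 31-base stretches also found in other genes was 51.3% for Krt81, 50.0% for Krt86, 42.0% for Krt34, 38.9% for Krt31, 37.4% for Krt83, 36.4% for Krt33b and 28.9% for Krt33a. For Krt87 it was 52.4%. It was only 5.77% for Krt35 and 1.77% for Krt36. The separate values of the 8 tested shaft keratins other than Krt35 and Krt36 are therefore uncertain, while the sum over the class does not depend on how reads were divided within it. Krt87 shares most with Gm49425, which is outside the family. The shaft keratins summed to 24.5, 17.3 and 26.8 TPM in R1ko, against 149.6, 19.8 and 106.6 TPM in WT. The root sheath keratins summed to 9.499, 5.07 and 11.3 TPM in R1ko, against 72.6, 10.4 and 42.9 TPM in WT. The other 10 hair keratins, not tested, were at 1.35 TPM or less in R1ko and 1.79 TPM or less in WT. The unplaced Krt222 and Krt90 were at 0.514 TPM or less throughout.

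**Figure D3:**
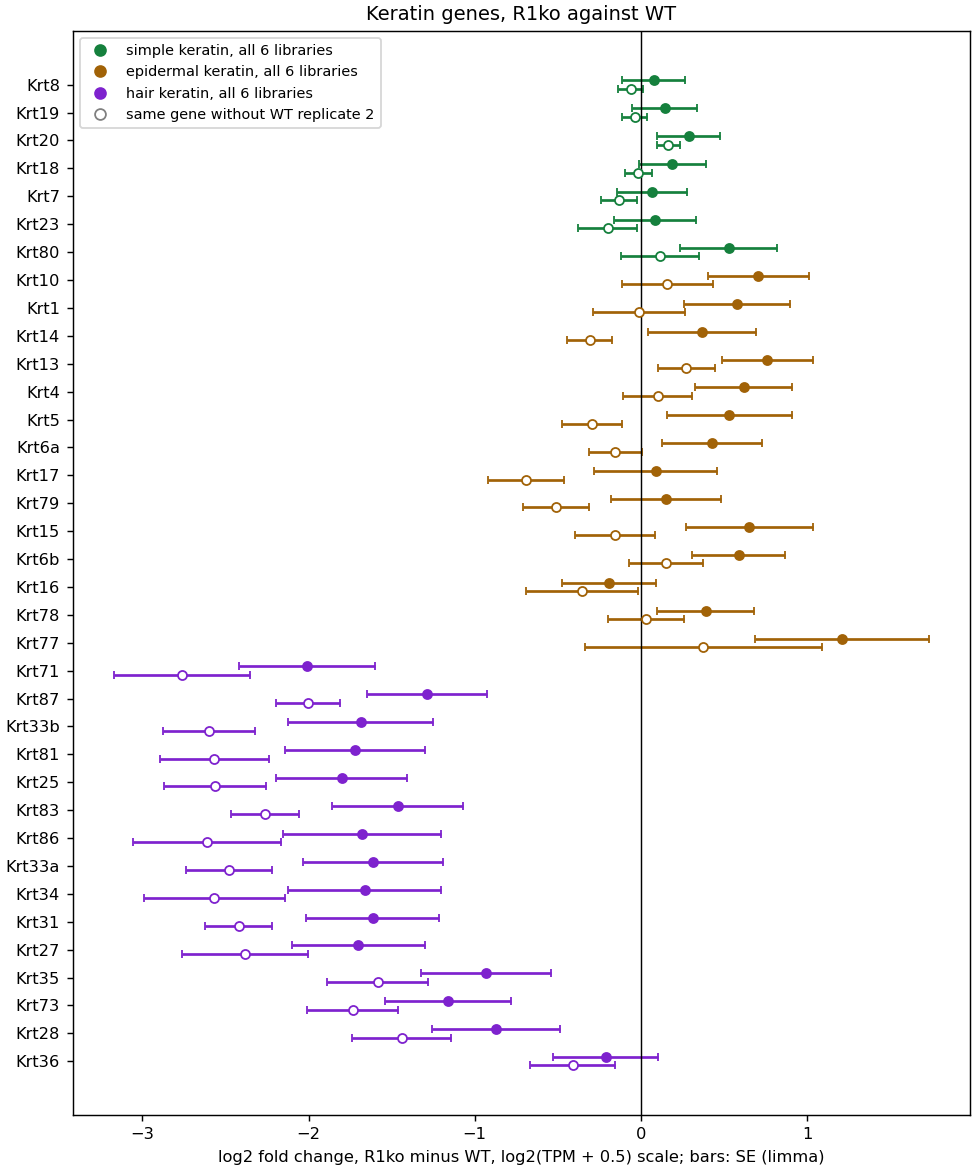
Log2 fold change of R1ko over WT for the 36 tested keratins on the log2(TPM + 0.5) scale, with the SE from limma (filled, all 6 libraries; open, without WT replicate 2; green simple, brown epidermal, purple hair). All 15 hair keratins are below 0 in both fits, between −2.01 and −0.21 with all libraries, while every epidermal keratin is lower when WT replicate 2 is left out.

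The balance of hair to epidermal keratins was set beside the class sums. Hair keratins summed to 2.98, 2.80 and 3.42% of the epidermal keratin TPM in R1ko replicates 1, 2 and 3, against 18.0, 10.3 and 17.1% in WT. This ratio does not depend on library scaling, and its groups did not overlap, WT replicate 2 included. It was chosen after the values were seen and has no test. In WT replicate 2 the hair sum of 30.4 TPM lay inside the R1ko range of 22.6 to 38.5 TPM. Its epidermal sum of 296.5 TPM was below all R1ko libraries, the lowest of which had 808.6 TPM. Epidermal keratins summed to 16.8, 12.7 and 17.1% of the simple keratin TPM in R1ko, against 19.3, 6.01 and 12.3% in WT, so that WT replicate 2 had the least epidermal keratin beside its simple keratin. The hair keratins relative to the simple ones were 0.501, 0.355 and 0.585% in R1ko, against 3.47, 0.616 and 2.10% in WT.

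**Figure D4:**
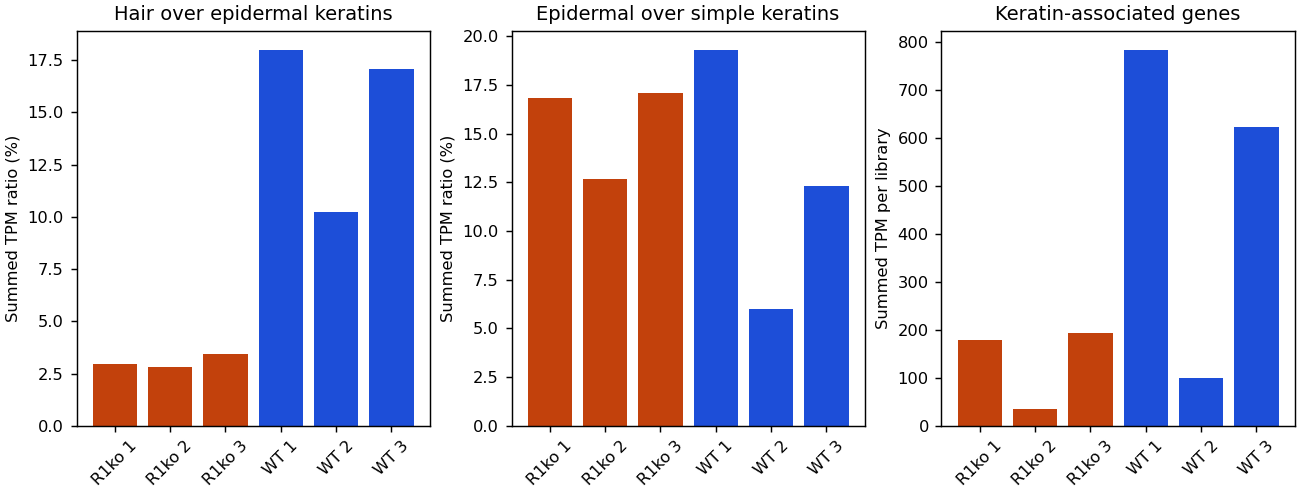
Summed TPM of hair keratins as a percentage of epidermal keratins, of epidermal keratins as a percentage of simple keratins, and summed TPM of keratin-associated genes, in each library (bars from 0; R1ko orange, WT blue). The hair share is 2.80 to 3.42% in R1ko and 10.3 to 18.0% in WT, while the epidermal share overlaps between the groups. The 10.3% is that of WT replicate 2, which has the lowest epidermal sum, 296.5 TPM, and a hair sum inside the R1ko range.

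Genes of the same tissues that are not keratins were read beside these classes. Keratin-associated proteins fill the space between hair keratin filaments. Their 55 genes summed to 178.3, 34.6 and 193.4 TPM in R1ko, against 782.6, 99.3 and 621.7 TPM in WT. Of the 38 tested, all had negative log2 fold changes (median −1.59) and 3 were lower, Krtap5-1, Krtap5-2 and Krtap19-9a, against 0.175% of all genes. After median-of-ratios scaling none passed, at log2 fold changes of −2.12, −1.71 and −1.98. Krtap5-1 and Krtap5-2 averaged 0.453 and 0.189 TPM in R1ko and 3.68 and 1.88 TPM in WT, so they entered the test through WT. So did Krtap5-5, Krtap17-1, Krtap26-1, Krtap4-7, Krtap4-2 and Krtap1-4, which also averaged below 1 TPM in R1ko. The filter on the mean thus favoured a negative direction in such genes. Among those not tested, Krtap13 and Krtap6-3 averaged 0.256 and 0.460 TPM in R1ko, against 0.0922 and 0.115 TPM in WT. The others not tested had the lower mean in R1ko or were at 0. Over all 55, tested or not, 47 had WT replicates 1 and 3 above all R1ko libraries, against 23.2% of all genes above 0. Without WT replicate 2 the median was −2.42 and 3 others were lower instead, Krtap28-13, Krtap13-1 and Krtap11-1. Krtap31-1, Krtap31-2 and Krtap9-5 were listed at 0 in all libraries. Of 12 other hair follicle markers, 10 had WT replicates 1 and 3 above all R1ko libraries, against 23.2% of all genes above 0. Of the 6 tested 1 passed, Tchh, against 0.175% of all genes called lower, and the median was −0.22, or −0.52 without WT replicate 2. Tchh encodes trichohyalin of the inner root sheath and had 2.50, 1.01 and 2.47 TPM in R1ko, against 15.8, 2.52 and 9.81 TPM in WT (log2 fold change −1.75, limma adjusted p = 0.0441). After scaling Tchh had −1.77 (adjusted p = 0.349), and without WT replicate 2 it had −2.45 (adjusted p = 0.0819). The sum of the 12 was 13.1, 13.5 and 18.6 TPM in R1ko, against 51.6, 11.8 and 37.8 TPM in WT. The libraries high in hair keratins were thus also those high in other hair follicle genes. The part of hair-bearing tissue in the difference of the keratins was not tested.

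The sum of squamous epithelium markers was lowest in WT replicate 2, as the sum of epidermal keratins was. The 16 markers, all tested and none at 0, summed to 1480, 1241 and 1449 TPM in R1ko, against 1326, 620.6 and 1152 TPM in WT. All 16 log2 fold changes were positive (median 0.52), none passed, and without WT replicate 2 the median was −0.01 with 7 positive and 9 negative. Lor (loricrin of the cornified layer) had 70.3, 87.8 and 93.4 TPM in R1ko, against 76.9, 15.3 and 39.3 TPM in WT (limma adjusted p = 0.161). Krtdap had 379.7, 328.3 and 345.7 TPM in R1ko, against 360.3, 83.4 and 231.2 TPM in WT (adjusted p = 0.549). Skeletal muscle markers, 14 genes with none at 0, summed to 1467, 3930 and 2046 TPM in R1ko, against 3872, 230.3 and 829.6 TPM in WT, and none passed (median log2 fold change 1.40, and 0.35 without WT replicate 2). Myh4 had 0.579, 7.63 and 1.81 TPM in R1ko, against 0.536, 0.101 and 0.140 TPM in WT (adjusted p = 0.0856), and Actn3 4.84, 33.8 and 12.7 TPM in R1ko, against 15.3, 1.18 and 2.73 TPM in WT (adjusted p = 0.397). WT replicate 2 was lowest in the muscle, squamous and hair marker sums alike. R1ko replicate 2, highest in muscle, was lowest in hair keratins, so the muscle and hair levels did not follow one order. The part of muscle or squamous tissue in the keratin values was not tested.

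Linkers and desmosomes anchor keratin filaments in the cell. Of 22 listed genes 21 were in the table and 19 were tested, and none passed, with 17 positive and 2 negative log2 fold changes (median 0.17, and −0.15 without WT replicate 2, beside −0.13 over all genes). Dsg2, the desmosomal cadherin of simple epithelia, had 196.8, 157.1 and 145.0 TPM in R1ko, against 106.7, 118.5 and 155.4 TPM in WT (limma adjusted p = 1.0). Tchp, which encodes the keratin-binding protein trichoplein, had 8.86, 4.53 and 9.67 TPM in R1ko, against 13.2, 6.97 and 10.6 TPM in WT (adjusted p = 1.0). Both overlapped between the genotypes. Of 13 other intermediate filament genes 11 were tested and none passed (median −0.03, and −0.16 without WT replicate 2). Lmna, of the nuclear lamina, had 370.5, 283.7 and 321.7 TPM in R1ko, against 342.6, 181.1 and 322.2 TPM in WT, and Nes, which encodes nestin, 3.06, 2.04 and 3.21 TPM in R1ko, against 4.54, 2.25 and 3.10 TPM in WT. Among the colon epithelium markers, none of 12 passed (median 0.23, and 0.11 without WT replicate 2). Cdx2, a transcription factor of intestinal identity, had 16.7, 12.8 and 18.8 TPM in R1ko, against 9.65, 6.08 and 9.92 TPM in WT (adjusted p = 0.159), and the goblet cell peptide Tff3 2778, 2716 and 2739 TPM in R1ko, against 2286, 1679 and 2269 TPM in WT (adjusted p = 1.0).

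Ratios within keratin pairs were compared because a ratio of 2 genes in a library does not change with library scaling. The TPM ratio of Krt20 to Krt8 was 0.117, 0.122 and 0.114 in R1ko, against 0.107, 0.104 and 0.0941 in WT, without overlap. On the log2(TPM + 0.5) scale the difference was 0.21, with means of −3.09 ± 0.05 in R1ko and −3.30 ± 0.10 in WT (SD, n = 3 each; two-sided exact permutation p = 0.1, the smallest possible, and 0.4 adjusted over 6 pairs). The ratio of Krt18 to Krt8 was 0.0890, 0.0876 and 0.0822 in R1ko, against 0.0917, 0.0728 and 0.0759 in WT (difference 0.11, exact permutation p = 0.4). Krt8 shares 31-base stretches with other genes over 36.0% of its length, with the pseudogene Krt8-ps as the closest, so its level may be divided between them. Krt20 shares none and Krt18 11.4%.

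The stratified pairs overlapped between the genotypes in all cases. Krt14 to Krt5 was 1.504, 1.41 and 1.62 in R1ko, against 1.43, 2.11 and 1.63 in WT (log2 difference −0.16, exact permutation p = 0.4). Krt10 to Krt1 was 1.53, 1.67 and 1.96 in R1ko, against 1.48, 1.66 and 1.56 in WT (0.13, exact permutation p = 0.4). Krt13 to Krt4 was 1.499, 1.55 and 1.36 in R1ko, against 1.32, 1.39 and 1.28 in WT (0.14, exact permutation p = 0.2). The ratio of the hair pair also overlapped. Krt25 to Krt71 was 0.730, 1.03 and 0.594 in R1ko, against 0.700, 0.641 and 0.661 in WT (0.21, exact permutation p = 0.4). Over all placed genes, type I keratin TPM was 0.776, 0.784 and 0.757 of type II keratin TPM in R1ko, against 0.775, 0.661 and 0.715 in WT.

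**Figure D5:**
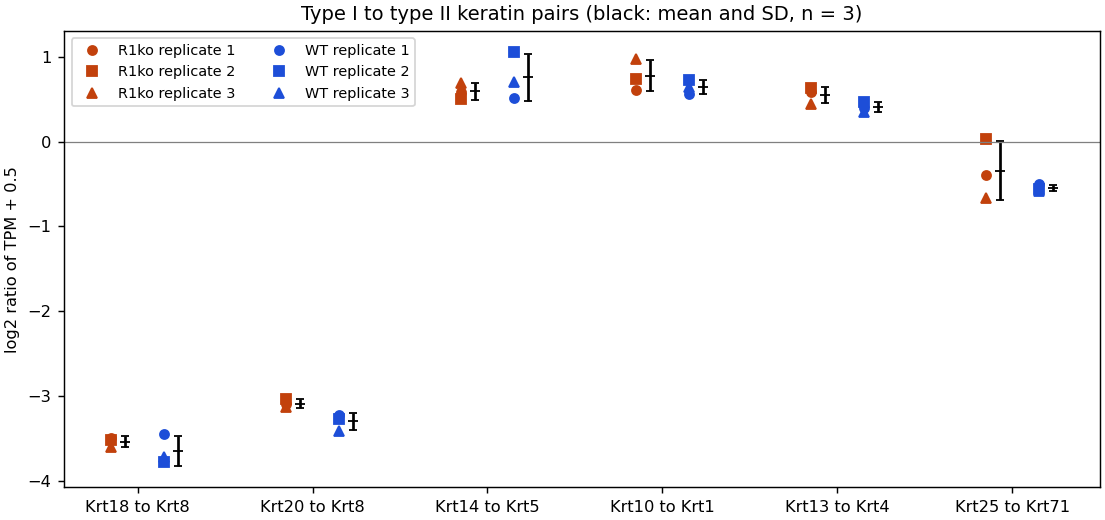
Log2 ratio of type I to type II keratin (TPM + 0.5) in each library for 6 pairs (orange R1ko, blue WT; black, mean and SD, n = 3). Krt20 to Krt8 is the one pair in which R1ko and WT do not overlap, with means of −3.09 and −3.30.

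Single transcripts gave no further call. Of 76 keratin transcripts with values, 41 from 36 genes reached the mean of 1 TPM, and 0 passed in limma over 31056 transcripts, against 0.0419% of all transcripts in either direction. At an unadjusted p below 0.05, 12 of the 41 were called, all lower, against 5.02% of all transcripts in either direction. Only Krt7, Krt13, Krt14 and Krt19 had more than 1 tested transcript, and in Krt13, Krt14 and Krt19 a single transcript held 97.6, 98.8 and 98.4% of the gene. The second Krt19 transcript ENSMUST00000126460 had 31.5, 26.5 and 19.5 TPM in R1ko, against 31.9, 24.9 and 38.3 TPM in WT (limma adjusted p = 1.0). Krt71 and Krt25, the genes called lower, have 1 transcript with values each. Their transcripts had the same log2 fold changes, −2.01 and −1.80, but did not pass (limma adjusted p = 0.751 and 0.826). The SEs were 0.59 and 0.56 in the transcript fit, against 0.41 and 0.40 in the gene fit. Each fit estimates spread partly from its own set of features.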

How the data were processed

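RNA of 6 whole colons (3 R1ko, 3 WT) was sequenced from libraries of polyadenylated RNA. The authors deposited 1 table of TPM per transcript. Transcripts were quantified with kallisto 0.43.1 on build mm10 and compared with sleuth, per the submitters' processing notes, and the sources used here do not name the transcript set. The 132639 lines held 131206 transcripts, and each was taken once. Of these, 88198 had values, and 1380 of them had no gene and were left out. TPM were summed per symbol. Genes averaging 1 TPM or more were tested as log2(TPM + 0.5), without scaling, in limma 3.58.1 with R 4.3.3 (lmFit, eBayes with a variance trend), two-sided, with Benjamini-Hochberg adjustment and a threshold of 0.05. Transcripts were fitted likewise. Where a single library is left out, the genes tested stay those of the full fit. Fold changes on this scale understate those of low genes. Pair ratios were compared by two-sided exact permutation tests. Counting intervals are left out because the depth is not known.

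The keratins, their classes and the other lists were chosen with earlier results of these data known. Keratins with a mean of at least 1 TPM are given in every library. From each other list the genes past the threshold are named, or the 2 with the smallest p. Gene positions and the shares of 31-base stretches come from GENCODE M21 on mm10, which may differ from the authors' transcript set; 75 of 76 keratin transcripts were matched. Alternatives were pseudocounts of 0.1 and 1, no filter or 5 TPM, 3 scalings, a replicate block and each library left out. The mice are separate animals, so the permutation p-values rest on the spread between mice. The limma p-values use a spread estimated partly from all other genes, which for Krt71 and Krt25 was below their own.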

Additional observations from a re-analysis of the deposited data

How the results depend on the processing

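Each group holds 3 mice and the read depth is unknown, which limits every call. Against 2 keratins lower in the full fit, 0 were lower with a pseudocount of 0.1, with no filter on low values, with median-of-ratios scaling, with rescaling over transcripts with a gene and with quantile normalization. A filter at 5 TPM gave 10 lower, all hair keratins that reached it through WT, and 1 higher (Krt13). A pseudocount of 1 gave 3 lower. Robust variance estimation gave 1 and scaling without WT replicate 2 gave 7, these last 2 settings chosen after seeing the data. With single libraries left out, 5 to 11 of 36 keratins were lower and 0 to 8 higher. Calls also changed over all 14248 genes, with 15 to 140 lower and 4 to 199 higher. The 8 higher came without WT replicate 1, where the WT group rests on replicates 2 and 3, and were Krt1, Krt4, Krt5, Krt10, Krt13, Krt14, Krt15 and Krt77. In that fit 8 keratins were also lower, and of all genes 199 were higher and 108 lower. Without R1ko replicate 2 Krt10 and Krt13 were higher, and without R1ko replicate 1 or 3 Krt77. Over all genes 76, 84 and 69 were higher without R1ko replicates 1, 2 and 3, and 126, 87 and 140 lower. Each of these fits called 11 keratins lower. Without WT replicate 2, 7 keratins were lower, against 15 of all genes, and without WT replicate 3, 5 against 55. Krt25 passed in each of the 6 fits that left out 1 library, and Krt71 in each but the one without WT replicate 2. The cause of these changes was not tested. No keratin transcript passed under any alternative.

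Replicate numbers are shared by the groups, but nothing in the labels pairs the mice. Deviations of same-numbered libraries correlated at 0.05, 0.13 and 0.18, and R1ko replicate 1 correlated better with WT replicate 3. With the replicate block, 4 keratins were lower (Krt71, Krt86, Krt34 and Krt27). For all genes, 13 were higher and 25 lower in the full fit, against 5 and 1 after median-of-ratios scaling, 3 and 1 after rescaling, 5 and 2 after quantile normalization, 1 and 1 with no filter, 75 and 67 at 5 TPM, 10 and 14 with a pseudocount of 0.1, 13 and 26 with a pseudocount of 1, 35 and 48 with robust variance, 13 and 58 with the block, 6 and 15 with scaling without WT replicate 2, and 4 to 199 and 15 to 140 with single libraries left out. For transcripts, 13 were called in the full fit, 7 with a pseudocount of 0.1, 1 with no filter, 23 at 5 TPM, 1 with the block and 1 to 57 with single libraries left out.

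All 15 tested hair keratins kept their direction in each alternative. Uncalled simple and epidermal keratins changed sign in some. With single libraries left out, log2 fold changes ran from −0.062 to 0.19 for Krt8, −0.04 to 0.28 for Krt19, −0.015 to 0.31 for Krt18, −0.13 to 0.18 for Krt7, −0.20 to 0.31 for Krt23, −0.012 to 1.06 for Krt1, −0.31 to 0.81 for Krt14, −0.30 to 1.09 for Krt5, −0.15 to 0.73 for Krt6a, −0.69 to 0.63 for Krt17, −0.51 to 0.52 for Krt79, −0.16 to 1.24 for Krt15 and −0.46 to 0.086 for Krt16. After rescaling over transcripts with a gene they were −0.053 for Krt8, −0.063 for Krt7, −0.037 for Krt23 and −0.036 for Krt17, and after quantile normalization −0.025 for Krt8 and −0.013 for Krt7. With scaling and without WT replicate 2 they were −0.067 for Krt23, −0.17 for Krt14, −0.16 for Krt5, −0.017 for Krt6a, −0.55 for Krt17, −0.38 for Krt79 and −0.020 for Krt15. Pair ratios kept their direction in each alternative, and with the replicate block no p could fall below 0.25. With single libraries left out, class medians ran from −0.04 to 0.31 for simple, −0.08 to 0.87 for epidermal and −2.42 to −1.10 for hair keratins. Log2 ratios of the class sums ran from −0.04 to 0.23 for simple, −0.04 to 0.99 for epidermal and −2.56 to −1.12 for hair keratins. The medians and sums of simple and epidermal keratins thus changed sign, and those of hair keratins did not.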
